A study of Mus musculus with 12 samples.

Results

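The 34 genes described here encode the light-signalling machinery of rods and cones and the proteins that build and maintain those cells. They were taken as a fixed list of gene symbols, 11 of rods, 8 of cones and 15 used by both cell types, out of 18193 genes that the platform annotation names. A probe set was named for 32 of them, and a gene with more than 1 was represented by the probe set of highest mean over the 12 arrays. Nr2e3, a repressor of cone genes in rods, and Cnga3, a subunit of the cone cation channel, had no probe set named for them alone and are not analysed here. Of the 32, 28 passed the filter on low values (a mean over the 12 arrays of at least 5.653 on the log2 scale) and were tested. The other 4, Gngt2, Opn1sw, Grk1 and Prph2, lay below it and were not shown to lie above background.

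The study measured iris RNA of mice aged 60 days on 12 Affymetrix arrays, 3 for each of 4 strains, and asked how mutations that alter pigmentation change gene expression in the iris. The strain without these mutations was C57BL/6J, and the names of the other 3 place them on the same B6 background. Lyst is mutated in the B6-Lyst strain (B6-Lystbg-J), and Tyr in the B6-albino strain (B6-(Cg)TyrC-2J). The B6-D2 congenic strain, B6.D2(Tryp1-Gpnmb-)/SJ, carries mutations in Gpnmb and in Tyrp1, which its name spells Tryp1. Each array held RNA pooled from the irides of 2 animals, 4 eyes in all, and the labels call the 3 samples of a strain biological replicates. Values are deposited log2 signals, differences are on the same log2 scale with their standard error (SE), and strain values are means ± SD over 3 arrays.

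Photoreceptors detect light through a G-protein cascade. An activated visual pigment switches on transducin, transducin relieves phosphodiesterase of its inhibitory subunits, and the fall in cyclic GMP closes cation channels in the outer segment. Arrestin and a receptor kinase end the signal, and calcium-sensing proteins that regulate guanylate cyclase reset it. Rods serve dim light and cones serve daylight and colour, and they use separate genes for several steps of the cascade. The neural retina holds these cells, while the iris lies in front of the lens, and its epithelium grows from the rim of the same optic cup.

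Some promoters of the group held a motif that the photoreceptor transcription factor Crx can bind. Of those, 4 are shown here because their transcripts behaved in contrasting ways. In the RefSeq promoter table (GRCm38.p6, windows of 250 bases before and 50 bases after a gene's start), 26 of the genes had 29 windows. TAATCC, searched on both strands (GGATTA on the other), occurred in 11 of the 29 windows (37.9%) and in 2320 of 32851 windows of the table (7.06%). TGCTGA, part of a site for the rod factor Nrl (TCAGCA on the other strand), occurred in 8 of the 29 (27.6%) and in 6401 of all windows (19.5%). The 250 bases before the start are printed 5′ to 3′ on each gene's own strand, with TAATCC or its reverse complement in capitals. They are those of the rod gene Gngt1 (chr6:3993758-3994007, plus strand), the cone gene Gnat2 (chr3:108092816-108093065, plus), the transcription factor gene Crx (chr7:15879956-15880205, minus), which holds 2 matches, and the retinoid transporter gene Abca4 (chr3:122044210-122044459, plus).
Gngt1: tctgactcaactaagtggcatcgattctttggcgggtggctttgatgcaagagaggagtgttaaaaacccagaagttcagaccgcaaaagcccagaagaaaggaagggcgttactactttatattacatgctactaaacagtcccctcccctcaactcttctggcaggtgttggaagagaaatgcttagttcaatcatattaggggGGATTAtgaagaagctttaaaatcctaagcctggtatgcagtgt
Gnat2: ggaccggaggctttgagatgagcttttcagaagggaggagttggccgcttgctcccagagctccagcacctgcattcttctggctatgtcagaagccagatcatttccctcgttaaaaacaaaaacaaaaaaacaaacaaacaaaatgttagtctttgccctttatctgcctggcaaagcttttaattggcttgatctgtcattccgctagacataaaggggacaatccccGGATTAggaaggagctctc
Crx: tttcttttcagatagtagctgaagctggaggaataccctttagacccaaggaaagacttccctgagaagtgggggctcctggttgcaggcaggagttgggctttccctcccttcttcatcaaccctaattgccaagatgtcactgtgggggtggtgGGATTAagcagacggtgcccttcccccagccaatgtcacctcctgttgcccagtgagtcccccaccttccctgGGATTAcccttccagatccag
Abca4: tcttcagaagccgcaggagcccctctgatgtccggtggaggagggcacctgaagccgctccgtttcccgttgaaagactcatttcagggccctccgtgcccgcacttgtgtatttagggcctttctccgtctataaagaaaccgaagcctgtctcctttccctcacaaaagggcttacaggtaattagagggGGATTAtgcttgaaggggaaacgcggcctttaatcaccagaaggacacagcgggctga
A match describes the letters only, and binding was not measured in this study. The transcripts of Gngt1, Gnat2 and Crx followed the rest of the group across the arrays and that of Abca4 did so least of the 28 tested genes. The 4 windows were taken from those that hold the motif, so they cannot show whether it goes with this behaviour.

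The arrays differed in ways that touch every comparison. The Affymetrix poly-A spike controls averaged 7.20 to 8.04 on the C57BL/6J arrays and 4.98 to 5.91 on the arrays of the other strains, so that C57BL/6J and a high spike level cannot be told apart, and the hybridization controls were lowest on the B6-Lyst arrays (9.32 to 9.45). The actin 3' minus 5' difference was 4.30 on C57BL/6J replicate 3 and 1.84 to 2.72 elsewhere, and the corneal keratin Krt12 was high on C57BL/6J replicate 1, B6-albino replicate 1 and B6-D2 congenic replicate 2. Arrays of the same strain correlated between 0.9726 and 0.9920 over probe sets, and 0 pairs were identical. Of the mutated genes, Gpnmb was 9.33 ± 0.25 in B6-D2 congenic irides against 12.57 ± 0.62 in C57BL/6J (n = 3 each), while Lyst, Tyr and Tyrp1 lay within 0.52 to 1.39 over all 12 arrays. A mutation need not change the level of its transcript.

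Signals of photoreceptor transcripts were high together or low together on the arrays of all 4 strains, and they varied from array to array within each strain. The mean of the 28 tested genes was 6.90, 8.47 and 6.85 on C57BL/6J replicates 1 to 3. It was 7.19, 8.94 and 8.39 on the B6-Lyst arrays, 9.0, 7.26 and 9.41 on the B6-albino arrays, and 9.29, 7.80 and 7.13 on the B6-D2 congenic arrays. Each strain thus held arrays with low and with high values, and the span from the lowest to the highest array was 2.56, or 5.88-fold. The median range of a tested gene over the arrays was 3.01, against 0.77 for all 27022 tested probe sets. Single values under 5.653 are not shown above background, so a range that starts there has no settled lower end. In bulk tissue, fewer cells of a type and less RNA per cell cannot be told apart.

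**Figure D1:**
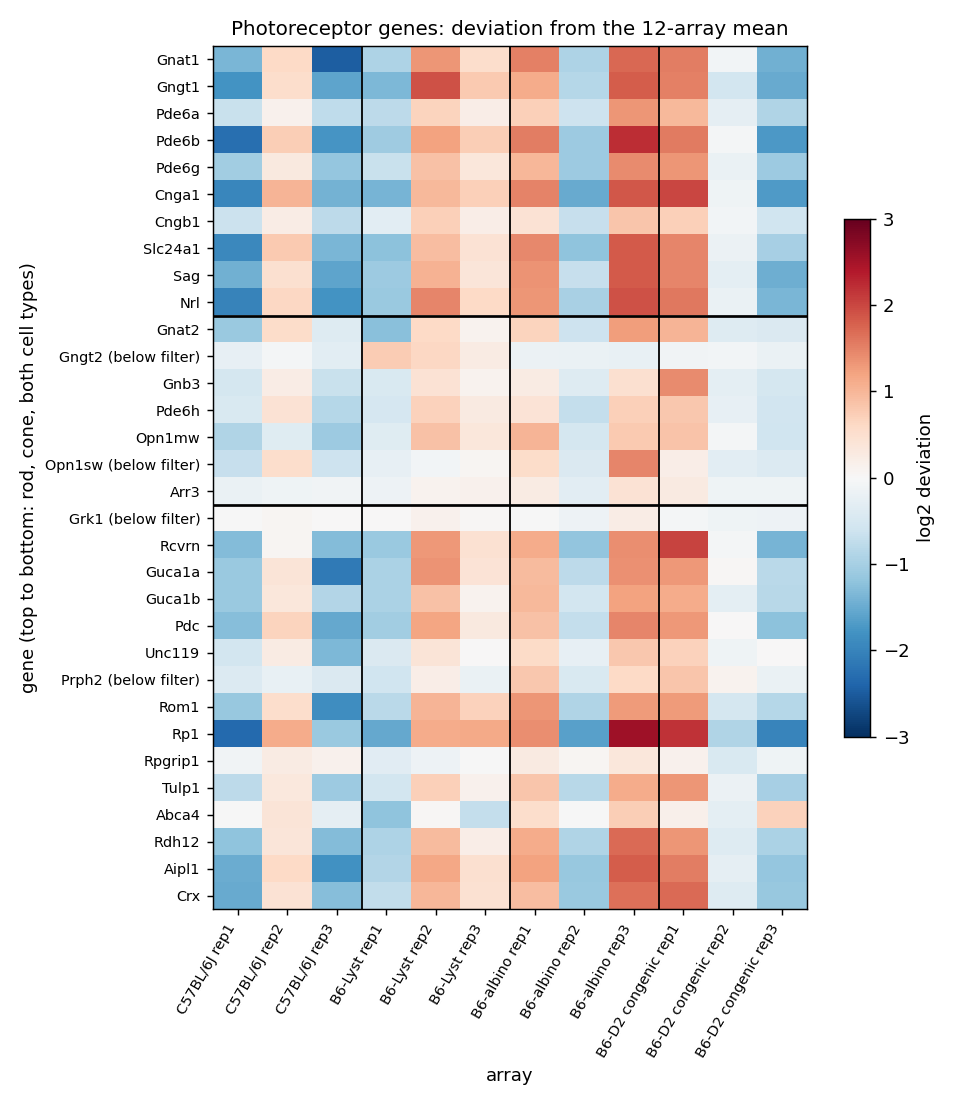
Each row is 1 of the 32 photoreceptor genes with a named probe set and each column 1 array, coloured by the log2 deviation from that gene's mean over the 12 arrays. Thick lines part rod, cone and shared genes and thin lines part the strains. Within each strain nearly all rows are red on the same arrays, such as B6-albino replicate 3, and blue on the same arrays, such as C57BL/6J replicate 3.

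The order of the arrays within a strain was nearly the same for every gene. C57BL/6J replicate 2 was the highest array of its strain for 31 of the 32 genes, B6-Lyst replicate 2 for 27, B6-albino replicate 3 for 28 and B6-D2 congenic replicate 1 for 30. B6-Lyst replicate 1 was the lowest of its strain for 31 genes, B6-albino replicate 2 for 31 and B6-D2 congenic replicate 3 for 28, while in C57BL/6J the lowest was replicate 3 for 19 genes and replicate 1 for 13. Another array was highest in 3 strains for Gngt2, in 2 for Arr3, and in 1 each for Opn1mw, Opn1sw, Prph2, Rom1, Rp1, Rpgrip1 and Abca4. Across the 12 arrays the median correlation of a tested gene with the mean of the other tested ones was 0.98, and 21 of the 28 reached 0.95. It was also 0.98 after each strain's mean was taken out. These correlations are given as a description with no test. By the same measure, 42 of 13162 tested genes outside the list (0.319%) reached 0.95, and their median was -0.09.

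Arrays of the same strain differed by more than the strain means did. Differences between strains held a median of 19.8% of a tested gene's variation over the arrays (9.54% for Pde6h to 50.5% for Abca4), against 39.4% for all tested probe sets. For all 28 tested genes the widest range within a strain exceeded the range of the 4 strain means, as it did for 81.6% of all tested probe sets. Gngt2, below the filter, was the exception among the 32.

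Rod genes varied widely from array to array. Gnat1 encodes the alpha subunit of rod transducin. It was 8.77, 10.74 and 7.67 in C57BL/6J, 9.21, 11.47 and 10.67 in B6-Lyst, 11.67, 9.23 and 11.88 in B6-albino, and 11.68, 10.06 and 8.71 in B6-D2 congenic irides. The lowest C57BL/6J array lay below all other arrays, but the highest, replicate 2, lay above 1 or more arrays of every other strain. Gnat1 averaged 9.06 ± 1.56 in C57BL/6J and 10.92 ± 1.47 in B6-albino irides (n = 3 each), a difference of 1.86 (SE 0.97, limma adjusted p = 0.309). It was 1.39 higher in B6-Lyst (SE 0.97, adjusted p = 0.505) and 1.09 higher in B6-D2 congenic irides (SE 0.97, adjusted p = 0.572), neither of which passed the test. Single arrays moved these values by more than 1.5 times. Without C57BL/6J replicate 3 the B6-albino, B6-Lyst and B6-D2 congenic differences were 1.17, 0.70 and 0.40, and without C57BL/6J replicate 2 the last 2 were 2.23 and 1.93. The B6-Lyst difference was 0.88 without B6-Lyst replicate 2, and the B6-D2 congenic one was 0.33 or 1.81 without its replicate 1 or 3.

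Pde6b, the beta subunit of rod phosphodiesterase, spanned 22.2-fold over the arrays, from 7.0 on C57BL/6J replicate 1 to 11.47 on B6-albino replicate 3. Its other C57BL/6J arrays were at 9.99 and 7.48. The B6-Lyst arrays were at 8.19, 10.47 and 10.01, the other B6-albino arrays at 10.79 and 8.17, and the B6-D2 congenic arrays at 10.81, 9.19 and 7.54. The strains overlapped, and the largest difference from C57BL/6J, 1.99 in B6-albino irides (SE 1.06, adjusted p = 0.32), did not pass, and was 1.08 without the 3 arrays with high Krt12. Pde6a, the alpha subunit, ranged from 4.89 to 7.13 and Pde6g, the inhibitory gamma subunit, from 6.83 to 9.41.

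The remaining rod genes followed the same arrays. Gngt1, the gamma subunit of rod transducin, went from 5.09 on C57BL/6J replicate 1 to 8.80 on B6-Lyst replicate 2. Of the rod channel, the alpha subunit Cnga1 went from 6.66 to 10.61 and the beta subunit Cngb1 from 6.08 to 7.71. Slc24a1, the rod sodium, calcium and potassium exchanger, went from 6.14 to 9.91. Sag, the rod arrestin that quenches the activated pigment, was 9.04, 10.95 and 8.89 in C57BL/6J, 9.40, 11.52 and 10.84 in B6-Lyst, 11.82, 9.79 and 12.33 in B6-albino, and 11.95, 10.18 and 9.01 in B6-D2 congenic irides. Nrl, the transcription factor that sets rod fate, went from 6.66 to 10.57. Each of these 10 rod genes correlated with the mean of the other tested genes at 0.97 or above, and their ranges were 1.63 (Cngb1) to 4.47 (Pde6b).

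**Figure D2:**
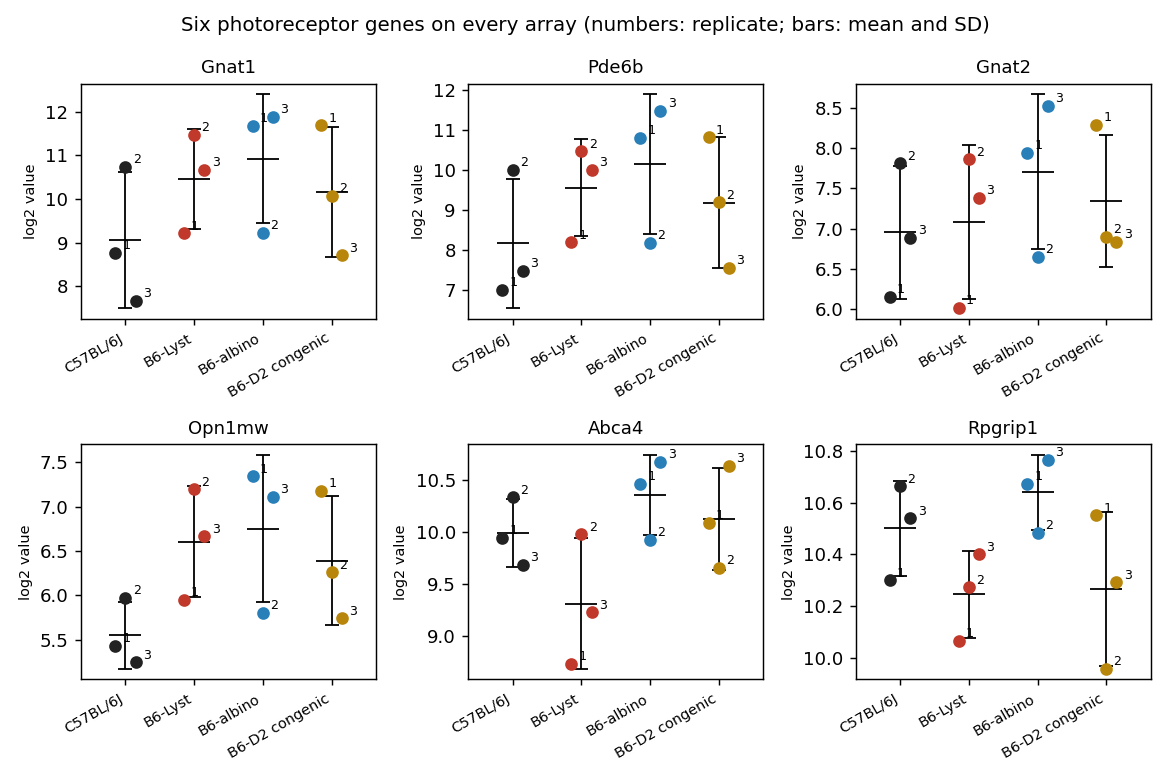
Log2 values of 6 photoreceptor genes on every array, 1 panel a gene, with strain on the horizontal axis, the replicate number beside each point, and bars for mean and SD (n = 3). Gnat1, Pde6b, Gnat2 and Opn1mw spread widely within each strain, as from 7.67 to 10.74 for Gnat1 in C57BL/6J, while Rpgrip1 stays between 9.96 and 10.76.

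Cone transcripts moved on the same arrays, over narrower ranges. Gnat2, the alpha subunit of cone transducin, was 6.16, 7.81 and 6.89 in C57BL/6J, 6.02, 7.86 and 7.39 in B6-Lyst, 7.94, 6.65 and 8.53 in B6-albino, and 8.29, 6.90 and 6.84 in B6-D2 congenic irides. The arrays of the 4 strains overlapped, and B6-albino and C57BL/6J irides differed by 0.75 (SE 0.61, adjusted p = 0.51). That difference was 0.36 or 1.18 without C57BL/6J replicate 1 or 2, 1.28 or 0.34 without B6-albino replicate 2 or 3, and 0.24 without the 3 arrays with high Krt12. Gnb3, the cone transducin beta subunit, which ON bipolar cells also use, went from 5.57 to 7.65, with its highest value on B6-D2 congenic replicate 1. Pde6h, the inhibitory subunit of cone phosphodiesterase, went from 5.40 to 7.08.

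Opn1mw, the opsin of middle-wavelength cones, came nearest to a strain difference among the 5 tested cone genes. It was 5.43, 5.97 and 5.24 on the C57BL/6J arrays, a mean of 5.55 that lies under the filter value. It was 5.95, 7.20 and 6.67 in B6-Lyst, 7.34, 5.80 and 7.11 in B6-albino, and 7.18, 6.26 and 5.74 in B6-D2 congenic irides. Each mutant strain held 1 array below C57BL/6J replicate 2, so that no pair of these strains was fully apart. The difference from C57BL/6J was 1.20 in B6-albino (SE 0.46, adjusted p = 0.185), 1.06 in B6-Lyst (SE 0.46, adjusted p = 0.259) and 0.84 in B6-D2 congenic irides (SE 0.46, adjusted p = 0.35). The last was 0.45 without B6-D2 congenic replicate 1.

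The other 3 cone genes gave low or flat signals. Opn1sw, the short-wavelength opsin, had a mean under the filter in the data as a whole and reached 6.92 on B6-albino replicate 3 and 6.00 on B6-albino replicate 1, with the other arrays between 4.74 and 5.98. Arr3, cone arrestin, stayed between 5.98 and 6.74. Its other probe sets, both under the filter, ranged over 1.5 and 1.62 and correlated with the tested genes at 0.97 and 0.93, against 0.86 for the one that stands for the gene.

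Gngt2, the gamma subunit of cone transducin, showed another pattern from the rest of the list. Its values were 4.77, 4.97 and 4.70 in C57BL/6J, 5.78, 5.65 and 5.27 in B6-Lyst, 4.84, 4.82 and 4.80 in B6-albino, and 4.93, 4.95 and 4.81 in B6-D2 congenic irides. All 3 B6-Lyst arrays lay above the other 9 on the log2 scale. Among tested probe sets, to which Gngt2 does not belong, 22.8% were apart between B6-Lyst and C57BL/6J irides. The shares were 30.2% for B6-Lyst and B6-albino and 17.2% for B6-Lyst and B6-D2 congenic irides. The Gngt2 levels are not shown to lie above background, and 9 of the 12 arrays lay below 5.0. The sizes that follow are therefore differences of signal and give no fold of the transcript. With no filter on low values the gene was called higher in B6-Lyst irides, by 0.76 over C57BL/6J (SE 0.12, limma adjusted p = 0.0065), by 0.75 over B6-albino (adjusted p = 0.00674) and by 0.67 over B6-D2 congenic irides (adjusted p = 0.0186). In that fit 1.58%, 1.29% and 0.795% of 45037 probe sets were called in the same pairs, and 1.48% for any strain difference, where Gngt2 had an adjusted p of 0.0119. The call against B6-D2 congenic irides ended without B6-Lyst replicate 1 (adjusted p = 0.0909) or 2 (0.102) and without B6-D2 congenic replicate 1 (0.0579), 2 (0.0531) or 3 (0.104), while the others held without any 1 array. Gngt2 correlated with the mean of the other genes at 0.11. The myeloid genes Tyrobp and Cd68, chosen after their values were seen, moved with it: Tyrobp was 10.55 to 10.97 on the B6-Lyst arrays and 7.15 to 8.21 elsewhere, and Cd68 was 10.34 to 10.83 against 6.08 to 7.87. The part of other cell types in the Gngt2 result was not tested.

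**Figure D3:**
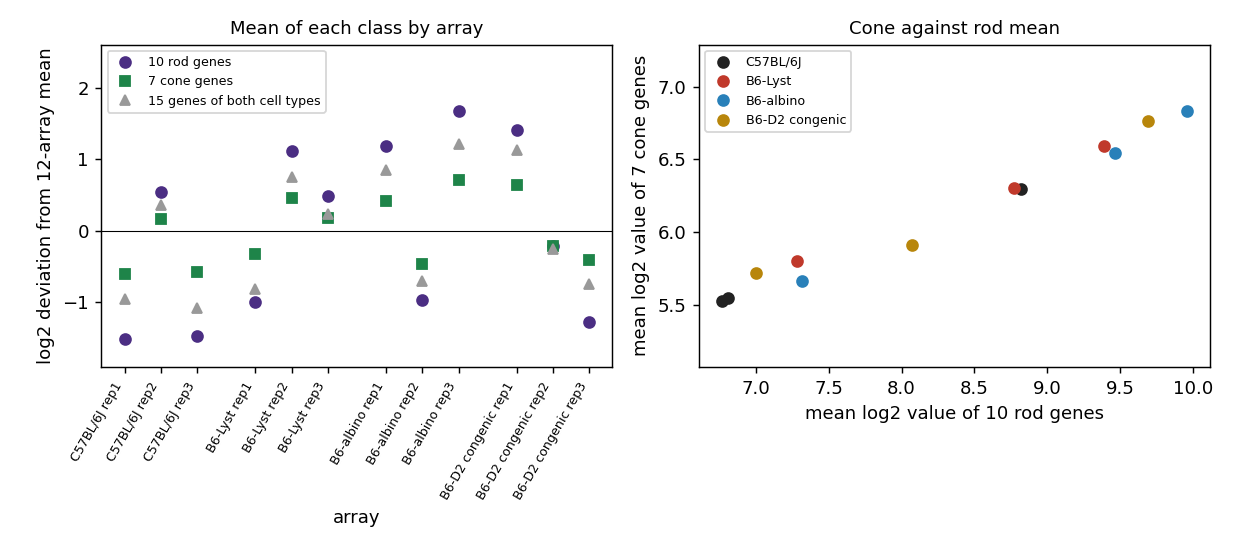
Left, the mean of 10 rod genes (circles), 7 cone genes (squares) and 15 shared genes (triangles) on each array, as the log2 deviation from that mean's average over the 12 arrays. Right, the cone mean against the rod mean in log2 units, 1 point an array coloured by strain. The 3 classes lie on the same side of 0 on every array, and the rod mean spans 3.19 where the cone mean spans 1.30.

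Rods and cones were set side by side as changes between arrays, since levels of different probe sets cannot be compared. The mean of the 10 rod genes went from 6.77 to 9.96 and that of the 7 cone genes from 5.53 to 6.83. The 2 means correlated at 0.99 over the arrays. Of the 7 cone genes, Gngt2 and Opn1sw lay under the filter, while all 10 rod genes passed it. The mean of the 5 tested cone genes went from 5.84 to 7.355 and correlated with the rod mean at 0.98. The median range of the 10 tested rod genes was 3.74, that of the 5 tested cone genes was 2.08 and that of the 13 shared ones was 3.01. A rod gene moved by a median of 1.39 for each unit of change in the mean of the other tested genes, a cone gene by 0.61 and a shared gene by 1.14. The median correlation was 0.97 over 45 pairs of rod genes, 0.85 over 10 pairs of cone genes and 0.91 over 50 pairs of a rod and a cone gene. Cone genes lay near the filter, with means over the arrays of 6.25 to 7.27 among those tested, and their ranges were 0.76 to 2.51. Rod genes with means as low were not alike: Pde6a (mean 5.80) and Cngb1 (6.87) had ranges of 2.25 and 1.63, and Gngt1 (6.90) had a range of 3.70. Among shared genes, Crx (mean 6.74), Rdh12 (6.95) and Rp1 (6.74) had ranges of 3.21, 3.01 and 4.88. The part of signal level in the narrower cone range was not tested.

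The distance between the rod and the cone mean followed the rod mean. Rod minus cone was 1.24, 2.52 and 1.26 in C57BL/6J, 1.48, 2.80 and 2.47 in B6-Lyst, 2.92, 1.65 and 3.13 in B6-albino, and 2.93, 2.16 and 1.28 in B6-D2 congenic irides. It was highest on arrays where the mean of the 28 tested genes was high, and its correlation with the rod mean, which it contains, was 0.9956. Against C57BL/6J its strain mean was 0.58 higher in B6-Lyst, 0.89 higher in B6-albino and 0.45 higher in B6-D2 congenic irides, while its SD within strains was 0.76. No test was made of these differences. They moved by more than 1.5 times with single arrays: without C57BL/6J replicate 1, 2 or 3 the B6-Lyst difference was 0.36, 1.00 or 0.37, and without B6-Lyst replicate 1 or 2 it was 0.96 or 0.30. The B6-albino difference was 1.35 without B6-albino replicate 2. The B6-D2 congenic one was 0.05 or 0.87 without its replicate 1 or 3, and 0.23, 0.87 or 0.24 without C57BL/6J replicate 1, 2 or 3. Leaving out the 3 high-Krt12 arrays gave 0.36, 0.49 and 0.21 in the same order of strains.

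Genes used by both cell types divided into a large set that followed the arrays and a few that did not. Recoverin (Rcvrn), a calcium sensor, was 6.42, 7.76 and 6.41 in C57BL/6J, 6.60, 9.0 and 8.18 in B6-Lyst, 8.82, 6.53 and 9.10 in B6-albino, and 9.73, 7.65 and 6.30 in B6-D2 congenic irides. The guanylate cyclase activators Guca1a and Guca1b went from 6.19 to 9.70 and from 9.01 to 11.33. Pdc, phosducin, which binds transducin beta and gamma subunits, went from 8.78 to 11.78. Guca1a was 1.46 higher in B6-albino than in C57BL/6J irides (SE 0.79, adjusted p = 0.326), which did not pass, and 0.88 higher without C57BL/6J replicate 3.

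Outer segment and maintenance genes also differed more between arrays of a strain than between strain means. Rom1, a protein of the disc rim, went from 5.65 to 8.84. Rp1, a microtubule protein of the outer segment axoneme, went from 4.41 on C57BL/6J replicate 1, a signal not shown above background, to 9.29 on B6-albino replicate 3. Its second probe set, under the filter, stayed between 4.72 and 5.02. Tulp1, needed for protein transport to the outer segment, went from 6.43 to 8.86, and Rdh12, a retinol dehydrogenase, from 5.65 to 8.66. Aipl1, the chaperone of phosphodiesterase, was 6.67, 8.75 and 6.34 in C57BL/6J, 7.28, 9.31 and 8.64 in B6-Lyst, 9.36, 7.02 and 9.97 in B6-albino, and 9.70, 7.89 and 6.99 in B6-D2 congenic irides. It followed the other tested genes most closely of the list, at 0.9954. Crx went from 5.23 to 8.44.

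Unc119, a carrier of lipid-modified proteins that is also expressed outside the retina, followed less closely (correlation 0.88). It was 9.31, 10.09 and 8.49 in C57BL/6J, 9.43, 10.25 and 9.86 in B6-Lyst, 10.42, 9.61 and 10.65 in B6-albino, and 10.53, 9.71 and 9.86 in B6-D2 congenic irides. B6-albino irides were 0.93 higher than C57BL/6J irides (SE 0.40, adjusted p = 0.229), and 0.53 higher without C57BL/6J replicate 3 (adjusted p = 0.532). Grk1, rhodopsin kinase, stayed between 4.73 and 5.10, under the filter, and Prph2, a disc rim protein, went from 4.27 to 5.70.

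Abca4, the retinoid transporter of photoreceptor discs, was the tested gene that followed the group least (correlation 0.38). It was 9.94, 10.33 and 9.68 in C57BL/6J, 8.73, 9.98 and 9.23 in B6-Lyst, 10.46, 9.93 and 10.67 in B6-albino, and 10.09, 9.66 and 10.64 in B6-D2 congenic irides. Its second highest value was on B6-D2 congenic replicate 3, where most of the list was low. B6-Lyst irides were 1.04 lower than B6-albino (SE 0.33, adjusted p = 0.13), 0.81 lower than B6-D2 congenic (SE 0.33, adjusted p = 0.463) and 0.67 lower than C57BL/6J irides (SE 0.33, adjusted p = 0.326). The strains overlapped and none of these passed. Without B6-Lyst replicate 1 the differences from B6-D2 congenic and C57BL/6J irides were -0.53 and -0.39.

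Rpgrip1, a protein of the connecting cilium, differed by probe set. The one that stands for the gene ranged over 0.81 and correlated with the group at 0.49, while its other tested probe set went from 5.47 on C57BL/6J replicate 1 to 9.53 on B6-albino replicate 3 and correlated at 0.93. The first was 10.07, 10.27 and 10.40 in B6-Lyst and 10.67, 10.48 and 10.76 in B6-albino irides. It was the only tested gene on the list whose arrays did not overlap in some pair of strains, where 30.2% of all tested probe sets did not overlap for B6-Lyst and B6-albino, and its adjusted p was 0.23. B6-Lyst and C57BL/6J irides differed by -0.25 (SE 0.17, adjusted p = 0.476) on this probe set and by 0.07 on the mean of all 4 of the gene's probe sets (adjusted p = 0.953). Without B6-Lyst replicate 1 the first of these was -0.16.

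No tested gene on the list passed the test between any 2 strains. Between B6-Lyst and C57BL/6J irides 0 of 28 were called by limma, where 2.53% of all tested probe sets were. The counts were also 0 of 28 for B6-albino (0.348% of all) and for B6-D2 congenic irides (0.0407%) against C57BL/6J. They were 0 of 28 for B6-Lyst against B6-albino (1.84%) and B6-D2 congenic irides (0.933%), for B6-albino against B6-D2 congenic irides (0.0851%) and for any difference among strains (2.09%). With unadjusted p under 0.05 the list had 1, 2, 0, 2, 1, 1 and 1 genes in that order, among 4712, 5246, 4818, 5160, 2622, 2294 and 5951 of all tested probe sets. They were Opn1mw in the first, Opn1mw and Unc119 in the second, Abca4 and Rpgrip1 in the fourth, and Abca4, Rpgrip1 and Abca4 in the last 3. The arrays of C57BL/6J overlapped those of each mutant strain for all 28 genes, where 22.8%, 23.5% and 18.1% of all tested probe sets were apart in these 3 comparisons, taken in the order B6-Lyst, B6-albino, B6-D2 congenic. Between mutant strains, 17.2% of all tested probe sets were apart for B6-Lyst and B6-D2 congenic irides and 14.2% for B6-albino and B6-D2 congenic irides, and 0 of the 28 genes were in either pair.

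**Figure D4:**
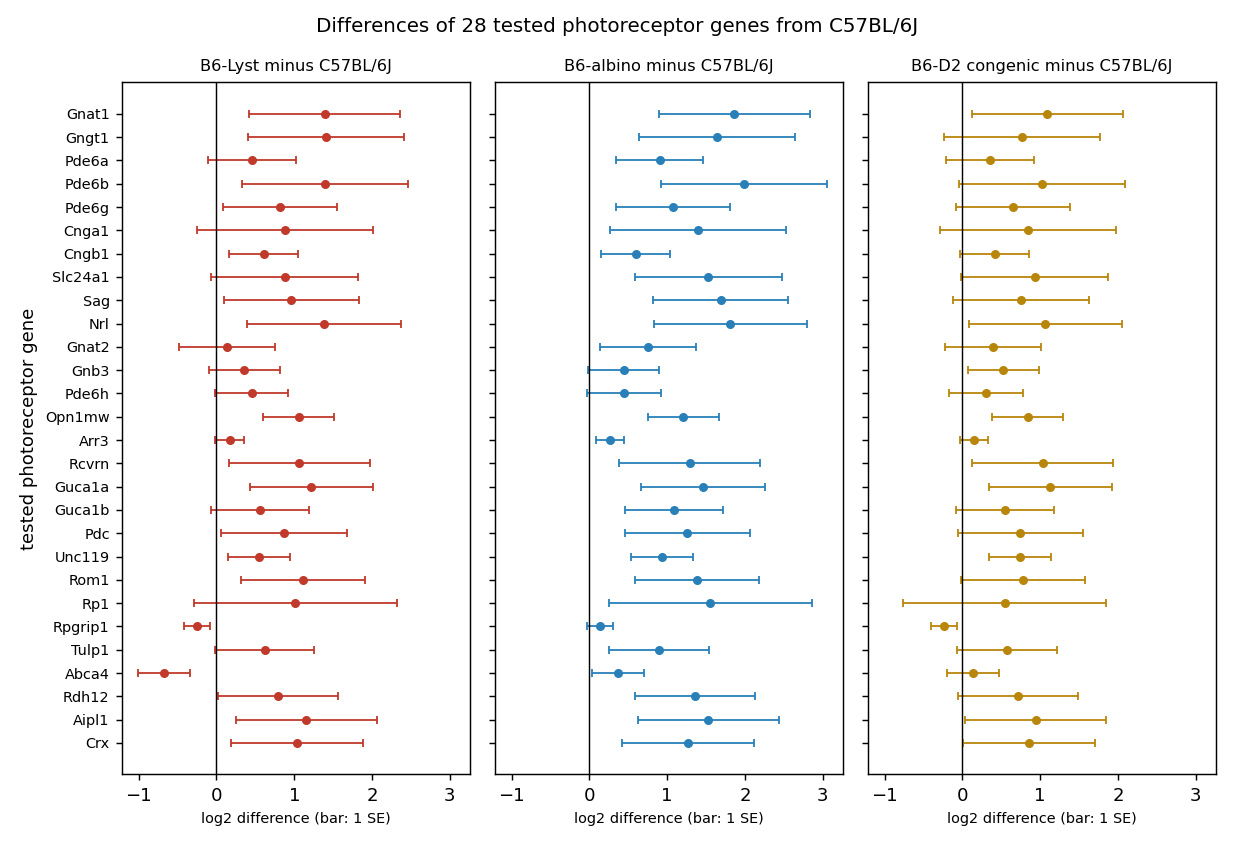
Log2 difference of each mutant strain from C57BL/6J for the 28 tested photoreceptor genes, 1 panel a strain on a shared scale, with bars of 1 SE. Most points lie right of 0 in all 3 panels, with medians of 0.87 (B6-Lyst), 1.27 (B6-albino) and 0.74 (B6-D2 congenic), and 0 of them passed the test.

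The estimates nevertheless lay mostly on 1 side. Against C57BL/6J, 26 of the 28 were higher in B6-Lyst irides (median 0.87), 28 in B6-albino (median 1.27) and 27 in B6-D2 congenic irides (median 0.74), while the medians of all tested probe sets were -0.02, 0.03 and 0.01. Lens and retinal pigment epithelium markers were also mostly higher than in C57BL/6J. The medians in the same order were 0.56, 2.71 and 1.78 over 9 lens markers (8, 9 and 9 higher), with 0 called. Over 8 pigment epithelium markers they were 0.13, 1.28 and 0.88 (5, 6 and 7 higher), with 0 called. Medians of bipolar, ganglion, and amacrine and horizontal cell markers were positive in all 3 strains. Other lists went both ways. Their medians were -0.76, -0.41 and 0.31 for corneal epithelium and 0.11, -0.26 and 0.08 for iris smooth muscle markers. They were -0.24, 0.19 and 0.03 for Müller glia and -0.05, 0.21 and 0.02 for pigment cell markers. The part of other tissues in the photoreceptor differences was not tested. The 3 comparisons share the C57BL/6J arrays, and the genes move together, so the counts do not stand for separate observations. The median SE of a difference was 0.78. Over all 32 genes the medians were 0.80, 1.14 and 0.68. These moved by more than 1.5 times with single arrays. Without C57BL/6J replicate 1, 2 or 3 the B6-Lyst median was 0.52, 1.28 or 0.53, without B6-Lyst replicate 1 or 2 it was 1.27 or 0.39, and without B6-albino replicate 2 or 3 the B6-albino median was 1.76 or 0.70. The B6-D2 congenic median was 0.04 without B6-D2 congenic replicate 1, 1.18 without replicate 3, and 0.43, 1.13 and 0.37 without C57BL/6J replicates 1, 2 and 3. Without the 3 arrays with high Krt12, the medians were 0.52, 0.60 and 0.52.

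Among the mutant strains the estimates were smaller. B6-Lyst irides were lower than B6-albino irides for 26 of 28 genes (median -0.39) and higher than B6-D2 congenic irides for 22 (median 0.11), and B6-albino irides were higher than B6-D2 congenic irides for 27 (median 0.47). All of these arrays lay at the low spike level. All 3 medians moved by more than 1.5 times with single arrays. The first was 0.16 or -0.76 without B6-Lyst replicate 1 or 2, and -0.09, -1.02 or 0.08 without B6-albino replicate 1, 2 or 3. The second was 0.57, -0.23 or 0.03 without B6-Lyst replicate 1, 2 or 3, and 0.67, 0.02 or -0.40 without B6-D2 congenic replicate 1, 2 or 3. The third, 0.42 over 32 genes, was 0.21, 1.09 or 0.02 without B6-albino replicate 1, 2 or 3, and 1.08 or 0.05 without B6-D2 congenic replicate 1 or 3. Leaving out the 3 high-Krt12 arrays gave -0.09, 0.02 and 0.05 in that order.

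Other photoreceptor genes were a list of 32, of which 26 had a named probe set and 19 were tested. Their mean moved on the same arrays, although not every gene did. It correlated with that of the 28 genes at 0.98, and 10 of the 19 reached 0.9 alone. Single genes went from -0.02 to 0.997 with a median of 0.92. Rgs9 (-0.02), Otx2 (0.25), Rpgr (0.27), Gnb1 (0.28) and Rxrg (0.30) did not follow. Cdhr1, a cadherin at the base of the outer segment, correlated at 0.997 and went from 6.06 to 9.5. Reep6, an endoplasmic reticulum protein of rods, correlated at 0.99 and went from 6.87 to 9.85. Rp1l1, a relative of Rp1, followed at 0.98, as did Rbp3, which carries retinoids between photoreceptors and pigment epithelium. Crb1, a polarity protein, and Mak, a kinase of the cilium, followed at 0.97. Of the 19, 0 were called against C57BL/6J in any mutant strain, with median differences of 0.19 for B6-Lyst, 0.53 for B6-albino and 0.14 for B6-D2 congenic irides.

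Otx2, a transcription factor of photoreceptors, bipolar cells and pigment epithelium, was the only called gene of that list. It was 9.18, 9.69 and 8.95 in B6-Lyst and 10.24, 9.96 and 10.24 in B6-albino irides, which did not overlap. In this pair 30.2% of all tested probe sets did not overlap and 1.84% were called. Otx2 averaged 9.90 ± 0.11 in C57BL/6J and 9.81 ± 0.28 in B6-D2 congenic irides (n = 3 each). B6-Lyst irides were 0.87 lower than B6-albino irides (SE 0.20, limma adjusted p = 0.0474). Its correlation with the photoreceptor genes was 0.25. The call ended with no filter (adjusted p = 0.0583), with quantile normalization (0.112), with 75th percentile scaling (0.0564), with the mean of all probe sets of a gene (0.0532), without the 3 arrays with high Krt12 (0.155), with only the arrays of the pair (0.0626), and without B6-Lyst replicate 1 (0.185) or 3 (0.14) or B6-albino replicate 1 (0.162), 2 (0.0729) or 3 (0.137). It also ended without C57BL/6J replicate 1 (0.0522) or 2 (0.0724) or B6-D2 congenic replicate 1 (0.0596), arrays outside the pair.

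The 10 genes outside the list with the highest correlation with its mean over the 12 arrays were Cdhr1, Reep6, Kcnj14, Cplx4, Cplx3, Rtbdn, Mpp4, Nrsn1, Cplx1 and Neurod1, at 0.997 to 0.980. Neurod1, a transcription factor, went from 5.20 on C57BL/6J replicate 1 to 9.63 on B6-albino replicate 3. Cplx3 and Cplx4 are complexins of retinal ribbon synapses. They went from 5.38 to 8.30 and from 5.75 to 8.92.

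The list means of bipolar and ganglion cell markers, which stand for other neurons of the retina, were high and low on the same arrays as the photoreceptor genes, although not every marker was. The mean of 7 tested bipolar cell markers correlated with the photoreceptor mean at 0.95 and that of 7 ganglion cell markers at 0.97. On each of these lists 3 markers reached 0.9 alone, among them the bipolar genes Pcp2 (values of 5.70 to 8.34) and Cabp5 (5.72 to 7.92) and the neurofilament genes Nefl (4.84 to 9.97) and Nefh (5.57 to 7.17). The members did not all follow. On the bipolar list their correlations went from -0.14 to 0.97 with a median of 0.88, and Trpm1 (-0.14), Lhx4 (0.51) and Prkca (0.59) followed least. On the ganglion cell list they went from -0.42 to 0.95 with a median of 0.90, and Rbpms (-0.42), Isl2 (-0.23) and Sncg (0.37) did not follow. For 6 amacrine and horizontal cell markers the list mean correlated at 0.79, but the median marker at 0.03, with Calb2 and Gad1 at 0.9 or above and the others from -0.44 to 0.31. The correlation of the list mean was 0.31 for 8 Müller glia markers, whose mean lay between 9.14 and 9.76 on all arrays, and 0.56 for 8 markers of the retinal pigment epithelium.

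The list means of lens, cornea, iris muscle and pigment cell markers correlated less with the photoreceptor mean. The mean of 9 lens markers spanned 5.71 (7.06 to 12.78) and correlated at 0.26, and that of 6 corneal epithelium markers spanned 4.57 and correlated at -0.23. The lens mean was highest on B6-albino replicate 3, as the photoreceptor mean was, and both were low on C57BL/6J replicates 1 and 3 (lens 8.39 and 7.92). It was lowest on B6-Lyst replicate 2, where the photoreceptor mean was 8.94. The correlation was -0.39 for 7 iris smooth muscle markers, between 9.14 and 10.55, and -0.16 for 8 pigment cell markers, between 11.87 and 12.76. The smooth muscle actin Acta2 (13.21 to 13.95) and the pigment cell enzyme Dct (13.51 to 14.07) were high on every array. They were the highest markers of their lists, and the muscle myosin Myh11 went from 10.08 to 12.27. The part of retinal tissue in the photoreceptor values was not tested.

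**Figure D5:**
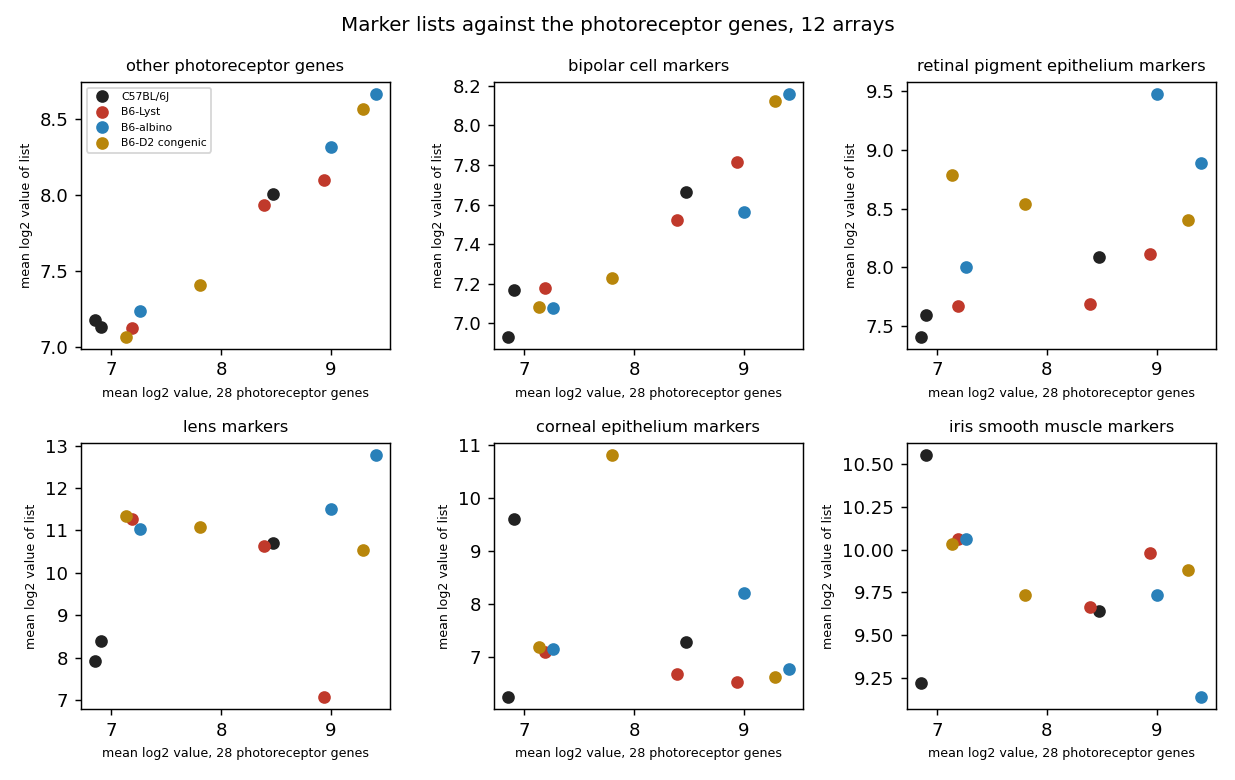
Mean log2 value of 6 marker lists (vertical axes) against the mean of the 28 tested photoreceptor genes (horizontal axes), 1 point an array coloured by strain. Other photoreceptor genes and bipolar cell markers rise along a line with the photoreceptor mean (0.98 and 0.95), while lens, cornea and iris smooth muscle markers scatter (0.26, -0.23 and -0.39).

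Gnat1 was set against 1 gene each of 8 cell types or tissues, in 8 relations over the 12 arrays. All of these genes were read from the same 12 libraries, and the p-values treat the arrays as independent samples. With the cone gene Gnat2 Pearson's r was 0.85 (permutation p = 0.00086, adjusted p = 0.00688) and Spearman's rho 0.88 (permutation p = 0.00032, adjusted p = 0.00256). Without the 2 arrays farthest from the median of Gnat1, C57BL/6J replicate 3 and B6-D2 congenic replicate 3, r was 0.97 (permutation p = 3e-05), and within the 9 mutant arrays, all at the low spike level, it was 0.92 (exact permutation p = 0.000945). Without the 3 arrays with high Krt12 it was 0.83, with an adjusted p of 0.0578 by exact permutation over 9 arrays. C57BL/6J alone holds too few arrays for a value.

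The other relations did not pass after adjustment. Rpe65, the isomerase of the pigment epithelium, gave r of 0.67 (permutation p = 0.0167, adjusted p = 0.0668) and rho of 0.63 (adjusted p = 0.133), 0.75 without the 2 farthest arrays (permutation p = 0.0106), and 0.50 within the mutant arrays (exact permutation p = 0.174). Rlbp1, the retinaldehyde carrier of Müller glia and pigment epithelium, gave r of 0.61 (permutation p = 0.0366, adjusted p = 0.0976) and rho of 0.58 (adjusted p = 0.14), 0.74 without the 2 farthest arrays (permutation p = 0.0147), and 0.46 within the mutant arrays (exact permutation p = 0.215). Both passed without B6-Lyst replicate 3 (adjusted p = 0.044 each) and without B6-D2 congenic replicate 3 (0.0119 and 0.013). The iris muscle myosin Myh11 gave r of -0.30 (adjusted p = 0.707) and the lens crystallin Cryaa 0.21 (adjusted p = 0.823). Trpm1, of bipolar cells and melanocytes, Krt12 and Tyr gave r of 0.01, -0.07 and -0.02 (adjusted p = 0.964 each). For these 3 and for Cryaa the sign of r changed when single arrays were left out.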

How the data were processed

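Iris RNA of 4 mouse strains was measured on 12 Affymetrix arrays. Each probe set has 1 value on each array in the authors' deposited table, taken as log2 from the values (2.98 to 14.29, array medians 6.05 to 6.14). How the background was corrected and the arrays normalized is not given in the sources used here, and the files hold no detection calls. Precision is limited by the number of arrays.

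Of 45037 probe sets other than the 64 controls, 34945 had 1 symbol in the platform annotation, 932 several and 9160 none, and 34741 were matched to RefSeq symbols. The 27022 with a mean at or above the 40th percentile were tested with limma 3.58.1 in R 4.3.3, as 1 model of 4 strain means with an intensity trend (prior degrees of freedom 3.57). Tests were two-sided for 6 pairs and an F test, with Benjamini-Hochberg adjustment over all tested probe sets, and called at an adjusted p under 0.05. The fit was tested on simulated data. Permutation tests used 100000 resamples, or all orders for 9 arrays.

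Named genes were all listed ones, the called or most correlated (up to 6) of the other photoreceptor list, the 10 nearest genes outside the list, some of each marker list and the mutated genes. Tyrobp and Cd68 were added after their values were seen. The genes and lists were chosen with earlier results of these data known. Alternatives were other filters, normalizations, probe set summaries, array subsets, covariates and a block for the replicate number.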

Additional observations from a re-analysis of the deposited data

How the results depend on the processing

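The count of photoreceptor genes called stayed at 0 under each alternative run in all 7 comparisons, except with no filter on low values, where 1 gene, Gngt2, was called in B6-Lyst minus C57BL/6J (adjusted p = 0.0065), B6-Lyst minus B6-albino (0.00674), B6-Lyst minus B6-D2 congenic (0.0186) and the test of any strain difference (0.0119). Leaving out 1 array at a time gave counts of 0 throughout, with lowest adjusted p from 0.0856 to 0.965. The difference of Rpgrip1 between B6-Lyst and C57BL/6J turned to 0.0675 with the mean of all its probe sets. The relation of Gnat1 with Trpm1 turned to -0.0619 with quantile normalization and to -0.33 with the mean of all probe sets. Without the 3 arrays with high Krt12, r with Gnat2 was 0.83 (adjusted p = 0.0578), with Krt12 0.0862 and with Tyr 0.0181. When 1 array was left out, r ranged from -0.59 to 0.17 for Trpm1, from -0.21 to 0.13 for Krt12, from -0.53 to 0.12 for Tyr, from -0.13 to 0.60 for Cryaa, from 0.51 to 0.78 for Rlbp1 and from 0.58 to 0.79 for Rpe65. The cause of these changes was not tested. The 108 alternative values of the median differences and the 108 of the rod minus cone differences lay within 1 SD of the main values, an SD of 1.10 and 0.76 within strains. That limit is wide beside the differences, so staying within it does not show that they were stable. When 1 array was left out, the median of B6-Lyst minus B6-albino irides ranged from -1.02 to 0.16. Deviations of same-numbered samples of different strains correlated from -0.43 to 0.39 over 18 pairs, with 6 pairs over 0.1. Those 6 were replicates 1 and 3 of C57BL/6J, B6-Lyst and B6-albino, at 0.14 to 0.39. Crossed pairs of replicates 1 and 3 of these strains went from -0.49 to 0.04. The remaining same-numbered pairs lay between -0.43 and 0.05. The replicate numbers thus do not pair the samples over all 4 strains, and a structure shared by some strains was not tested. A replicate block left 0 photoreceptor genes called in each comparison and moved the adjusted p of Otx2 to 0.0866. Signals of the 4 genes under the filter have no measured background, and with a median SE of 0.78 differences near 1 on the log2 scale lie close to their error.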
